A study of Mus musculus with 6 samples.

Results

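The 10 genes described here encode transcription factors that set and maintain lymphatic and endothelial identity: Prox1, Sox18, Sox7, Nr2f2, Maf, Tbx1, Foxc1, Erg, Fli1 and Tal1. They were taken from a list of symbols, by a rule that uses no measured value but was written with earlier results of these data known, and all 10 are among the 13454 genes of the table. Each also passed the filter of a mean of at least 1 CPM (reads scaled to a fixed library total), as did 11980 genes in all. The RNA came from lymphatic endothelial cells of mouse melanomas, sorted for CD31 and GP38 on the surface and against CD45. The tumours were transplants of B16-OVA-VEGFC, a melanoma line that drives lymphatic vessel growth. Tumours grew either in mice without Ch25h in their lymphatic vessels (Ch25h KO, 3 libraries) or in littermate controls that kept it (WT, 3 libraries). Ch25h makes the oxysterol 25-hydroxycholesterol. The sources used here do not give the strain, age and sex of the mice, the driver of the deletion or the number of mice behind a library. P-values therefore measure only how far these libraries spread, and that spread may be technical. Titles call the Ch25h KO libraries HE without explaining it.

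Lymphatic endothelium arises in the embryo from vein endothelium. Sox18 of the SoxF family and Nr2f2 (COUP-TFII) switch on Prox1 there, and Prox1 then holds the lymphatic state, also in the adult. Erg, Fli1 and Tal1 act in endothelium more widely: the ETS factors Erg and Fli1 maintain genes of endothelial junctions and identity, and Tal1 works in a complex with Lmo2, Ldb1 and E-proteins. The comparison asks whether transcripts of these factors differ in tumour lymphatic endothelium that lacks Ch25h.

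Ch25h itself was measured first, as a check of the genotype labels. It stood at 0, 0.0232 and 2.95 CPM in Ch25h KO libraries 1 to 3, against 82.9, 88.8 and 106 CPM in WT libraries 1, 2 and 3 (limma, adjusted p = 0.00365). It was the single gene of 11980 that passed an adjusted p of 0.05 in limma, so 0.00835% of the tested genes were called. Ch25h no longer passed once WT library 1 was left out (adjusted p = 0.0792), nor on recovered reads with edgeR (adjusted p = 0.816) or DESeq2 (adjusted p = 0.208). All 13454 genes of the table together took between 36556824 and 46165273 reads per library. The genes behind the sort were found in both genotypes. Pecam1, which encodes CD31, stood at 586, 760 and 824 CPM in Ch25h KO libraries, against 670, 747 and 699 CPM in WT libraries. Pdpn, which encodes GP38, stood at 145, 149 and 171 CPM in Ch25h KO libraries, against 192, 170 and 177 CPM in WT libraries. Ptprc, which encodes the CD45 sorted against, reached 19.7 CPM in Ch25h KO library 2 and at most 3.13 CPM in the other libraries. The summed level of 8 lymphatic markers ran from 6690 to 9450 CPM in Ch25h KO libraries and from 7300 to 10100 CPM in WT libraries. Ccl21a, also on that list, was not analysed here.

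None of the 10 fate factors passed the test. Their adjusted p-values ran from 0.836 to 0.997 (limma on log2(CPM + 1), Benjamini-Hochberg over 11980 genes). Erg alone reached an unadjusted p under 0.05, against 5.41% of all tested genes in either direction and 3.79% lower in Ch25h KO, as Erg was. Erg did so in 16 of 17 alternatives, but which other factors joined it depended on the setting. With library weights Prox1, Sox7 and Tbx1 joined it (16.2% of all tested genes), without WT library 1 Prox1 and Sox7 (10.8%) and without library 1 of both genotypes Prox1 and Tbx1 (7.73%). With the library number added to the model, Prox1 joined Erg in limma (7.1%) and in edgeR (6.31%). Without Ch25h KO library 1 Tbx1 was under 0.05 and Erg was not (4.72%). Erg alone had genotypes that did not overlap, against 10.2% of all tested genes in either direction and 5.78% lower in Ch25h KO. A lower mean in Ch25h KO was seen for 9 of the 10 factors, where 50.4% of the tested genes had one. The median log2 fold change of the 10 factors was -0.14, and that of all tested genes was 0. Lymphatic markers leaned the same way, with a lower mean in Ch25h KO for 7 of 8, Prox1 among them, and a median of -0.18. Melanoma markers leaned the other way, with a higher mean in Ch25h KO for 11 of 14 and a median of 0.56. No marker of either list passed the test (limma, adjusted p at least 0.904), and the part of these leanings in the fate factor values was not tested. The 9 of 10 turned on single libraries: 7 were lower without WT library 1 and 6 without library 1 of both genotypes, a setting chosen after seeing the data. In sorted cells measured in bulk, fewer cells that carry a transcript and less RNA per cell cannot be told apart.

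**Figure D1:**
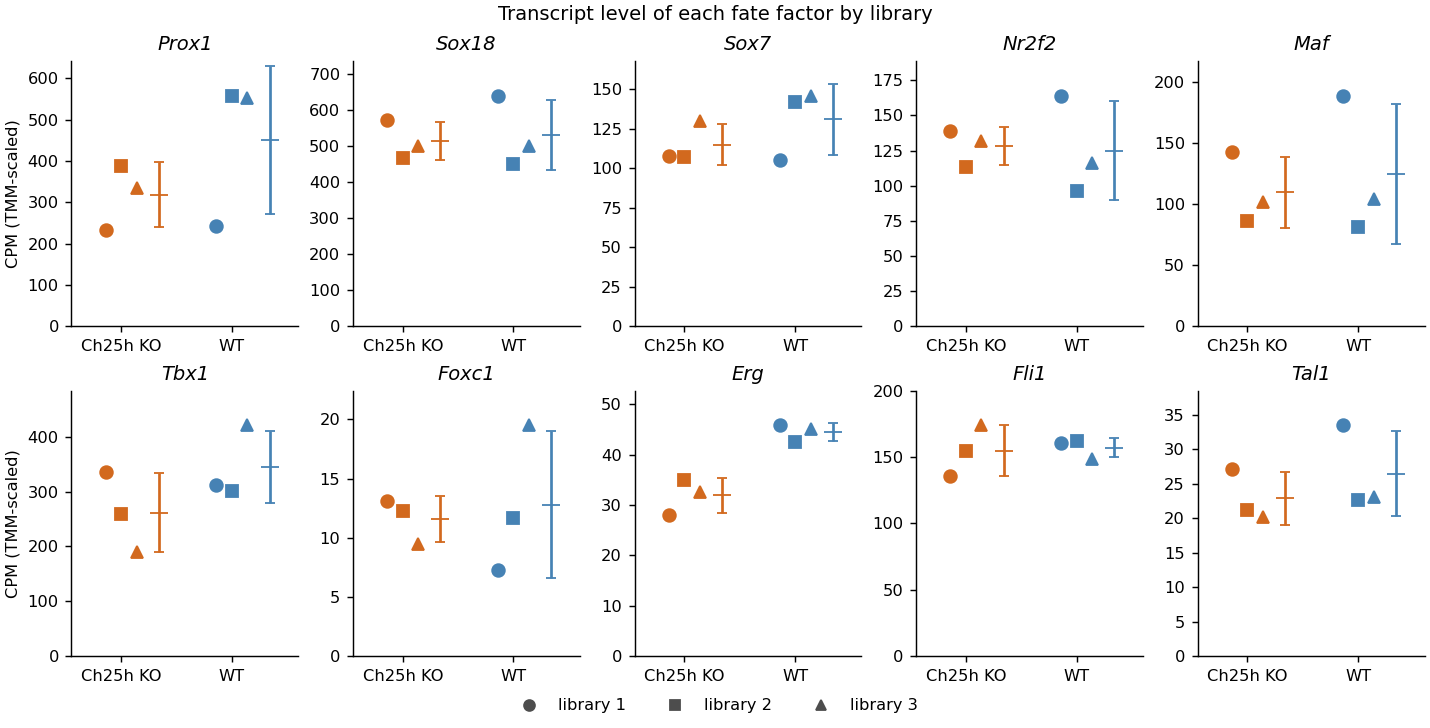
Level of each fate factor in CPM scaled by TMM factors (y axis, from 0) in each library of Ch25h KO (left, orange) and WT (right, blue), with marker shapes for library numbers 1 to 3; bars show the mean and SD (n = 3). The genotypes overlap in every panel except that of Erg, where the Ch25h KO libraries lie between 28.0 and 35.0 CPM and the WT libraries between 42.4 and 45.8 CPM.

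Erg is the member that differed most clearly between the genotypes, although it did not pass the test over all genes. It lies on chromosome 16 at 95359169 to 95586593, minus strand of mm10, and no exon of it overlaps another annotated gene. It stood at 28.0, 35.0 and 32.6 CPM in Ch25h KO libraries 1 to 3, from 1044, 1507 and 1293 reads. WT libraries 1, 2 and 3 held 45.8, 42.4 and 45 CPM, from 2093, 1780 and 2084 reads. Every Ch25h KO value lay below every WT value, and the WT libraries lay close together. Means were 31.9 ± 3.54 CPM for Ch25h KO and 44.4 ± 1.77 CPM for WT (SD, n = 3 each), so Ch25h KO kept 71.7% of the WT level. The log2 fold change was -0.47 ± 0.16 (SE), with a 95% interval of -0.82 to -0.12 (limma, unadjusted p = 0.013, adjusted p = 0.836). By p-value it was number 179 of the 11980 tested genes. An exact permutation test, two-sided, gave p = 0.1, the smallest that 3 libraries against 3 allow. Over all 17 alternatives the fold change stayed between -0.54 and -0.36, the adjusted p ran from 0.18 to 1, and no alternative made the call.

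Marker sums of endothelium and of other cells are given beside Erg, although no single marker on these lists passed the test (limma, adjusted p at least 0.836). The summed level of 10 pan-endothelial markers, Erg among them, was 5880, 5940 and 5740 CPM in Ch25h KO libraries 1, 2 and 3, against 5880, 5920 and 5760 CPM in WT libraries 1, 2 and 3. Blood endothelial markers, 10 of 11 listed, summed to 2200 to 2480 CPM in Ch25h KO libraries, against 2650 to 3690 CPM in WT libraries, without overlap. The largest part of that sum was Plvap, which forms the diaphragms of endothelial fenestrae, at 1310, 1090 and 1180 CPM in Ch25h KO libraries, against 1500, 1620 and 2520 CPM in WT libraries. Without Plvap the genotypes overlapped, at 1100, 1110 and 1300 CPM in Ch25h KO libraries, against 1150, 1430 and 1170 CPM in WT libraries. Of 8 markers of this list that were tested, 6 had a lower and 2 a higher mean in Ch25h KO. Plvap, Flt1, Nos3 and Ly6c1, 4 of the 8, were lower without overlap, against 5.78% of all tested genes. Ly6c1 stood at 1.1, 2.14 and 1.82 CPM in Ch25h KO libraries, against 5.93, 2.53 and 6.46 CPM in WT libraries. Emcn, a sialomucin gene of the same list, had a higher mean in Ch25h KO, at 34.5, 24.1 and 42.5 CPM in Ch25h KO libraries, against 25.8, 27 and 14.3 CPM in WT libraries. Levels within this list differed widely. Flt1 was low, at 0.353 to 0.537 CPM in Ch25h KO libraries, against 0.778 to 4.74 CPM in WT libraries. Vwf was low too, at 0.0504 to 1.56 CPM in Ch25h KO libraries, against 0.151 to 1.29 CPM in WT libraries. Cd34 was high, at 235 to 499 CPM in Ch25h KO libraries, against 290 to 339 CPM in WT libraries. Kdr, also on the pan-endothelial list, was high at 554 to 734 CPM in Ch25h KO libraries, against 605 to 915 CPM in WT libraries. The part of blood endothelial cells in the Erg values was not tested. Red cell and platelet markers, 7 of 11 listed, summed to 22 to 34.7 CPM in Ch25h KO libraries, against 35.8 to 52.4 CPM in WT libraries, and their part was not tested either.

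Fli1, the closest relative of Erg among the members, overlapped between the genotypes. It stood at 136, 155 and 174 CPM in Ch25h KO libraries 1 to 3, and at 161, 162 and 149 CPM in WT libraries 1, 2 and 3. Ch25h KO held both the lowest and the highest library. The log2 fold change was -0.03 ± 0.14 (SE), with a 95% interval of -0.34 to 0.28 (limma, adjusted p = 0.993). Fli1 was also the steadiest of the 10 genes, with a coefficient of variation of 8.31% over the 6 libraries. Tal1, the bHLH factor of blood and endothelial specification, stood at 27.2, 21.2 and 20.2 CPM in Ch25h KO libraries, against 33.5, 22.7 and 23.1 CPM in WT libraries. Its genotypes overlapped (log2 fold change -0.19, 95% interval -0.66 to 0.28; limma, adjusted p = 0.973).

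Prox1, the master regulator of lymphatic identity, varied widely among the WT libraries. It lies on chromosome 1 at 190118035 to 190170714, minus strand, and 1.59% of its exon bases overlap the antisense gene Prox1os, from which strand could not separate reads. It stood at 234, 387 and 335 CPM in Ch25h KO libraries 1 to 3, from 8723, 16681 and 13268 reads. WT libraries 1, 2 and 3 held 243, 558 and 552 CPM, from 11117, 23392 and 25568 reads. WT libraries 2 and 3 lay above all Ch25h KO libraries, while WT library 1 lay with Ch25h KO library 1 at the bottom. Ch25h KO averaged 319 ± 77.8 CPM and WT 451 ± 180 CPM (SD, n = 3 each), so the Ch25h KO mean was 70.6% of the WT mean. The log2 fold change was -0.43 ± 0.31 (SE), with a 95% interval of -1.14 to 0.27 (limma, adjusted p = 0.973; exact permutation p = 0.3). It was -0.83 without WT library 1 and did not pass there either (limma, adjusted p = 0.431). Prox1 reached an unadjusted p under 0.05 in 5 of 17 alternatives, and no alternative made the call.

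The SoxF genes act upstream of Prox1. Sox18 stood at 574, 468 and 502 CPM in Ch25h KO libraries, against 641, 452 and 502 CPM in WT libraries. The third libraries of both genotypes were alike, and the log2 fold change was -0.04 with a 95% interval of -0.41 to 0.33 (limma, adjusted p = 0.991). Sox7 stood at 108, 107 and 130 CPM in Ch25h KO libraries, against 105, 142 and 146 CPM in WT libraries. Its WT library 1 was the lowest of all 6, as it nearly was for Prox1, and the log2 fold change was -0.17 with a 95% interval of -0.54 to 0.20 (limma, adjusted p = 0.973). Sox17, the third SoxF gene and one tied to arteries, did not pass the filter, at 0 to 0.928 CPM in Ch25h KO libraries, against 0.394 to 0.715 CPM in WT libraries. The nuclear receptor gene Nr2f2, which gives veins their identity and pairs with Prox1, stood at 139, 113 and 132 CPM in Ch25h KO libraries, against 164, 96.0 and 116 CPM in WT libraries. It was the single member with a higher mean log2 value in Ch25h KO (limma log2 fold change 0.06, 95% interval -0.38 to 0.50, adjusted p = 0.989). Of the Nr2f2 exon bases, 7.46% overlap B130024G19Rik on the other strand, from which strand could not separate reads.

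Tbx1, a T-box factor needed for the growth of lymphatic vessels, ranked after Erg by p-value. It stood at 336, 260 and 190 CPM in Ch25h KO libraries 1 to 3, and at 313, 301 and 421 CPM in WT libraries 1, 2 and 3. The highest value was WT library 3 and the lowest Ch25h KO library 3, while Ch25h KO library 1 lay above WT libraries 1 and 2. The log2 fold change was -0.42 ± 0.22 (SE), with a 95% interval of -0.90 to 0.07 (limma, unadjusted p = 0.0852, adjusted p = 0.941). Maf, a leucine zipper factor of lymphatic endothelium and also of macrophages, stood at 143, 86.1 and 102 CPM in Ch25h KO libraries, against 189, 81.3 and 104 CPM in WT libraries. Its fold change of -0.12 had an interval of -0.78 to 0.55 (limma, adjusted p = 0.985), and without WT library 1 it was 0.23. Of the Maf exon bases, 5.34% overlap the antisense gene Gm15655, from which strand could not separate reads. Leukocyte markers, 16 of 20 listed, summed to 258, 541 and 490 CPM in Ch25h KO libraries 1, 2 and 3 and to 628, 377 and 431 CPM in WT libraries 1, 2 and 3. The CD45 gene Ptprc was at 0 in 2 libraries, and the macrophage genes Csf1r and Adgre1 (listed as Emr1) at 0 in 1 library each. Csf1r and Adgre1 were highest in WT library 1, as Maf was, at 14.7 and 9.72 CPM. Lyz2 of the same list stood at 9.93, 58.7 and 33.8 CPM in Ch25h KO libraries, against 156, 7.51 and 88.3 CPM in WT libraries. C1qb stood at 3.49, 12.5 and 8.34 CPM in Ch25h KO libraries, against 61.2, 3.19 and 24.4 CPM in WT libraries. Mrc1, which lymphatic endothelium also expresses, made up 202 to 302 CPM of that sum in Ch25h KO libraries and 216 to 330 CPM in WT libraries. Fcer1g added 200 CPM in Ch25h KO library 3, where the other libraries held 6.36 to 19 CPM. In Ch25h KO library 2, Coro1a was at 43 CPM and Cd79a at 13.1 CPM, against at most 6.65 and 0.367 CPM in the other libraries. On a mean of centred log2 values, which weighs each marker alike, WT library 1 was the highest at 1.02 and WT library 2 the lowest at -1.1, as in Maf, while Ch25h KO library 1 was at -1.06 and second highest in Maf. Ch25h KO libraries 2 and 3 were at 0.78 and -0.07 on that mean. The share of Maf that came from such cells was not tested. Foxc1, a forkhead factor of vessel and valve development, was the lowest member, at 13.1, 12.3 and 9.45 CPM in Ch25h KO libraries, against 7.27, 11.7 and 19.5 CPM in WT libraries. WT held its lowest and its highest library (log2 fold change -0.04, 95% interval -0.76 to 0.68; limma, adjusted p = 0.997). Fibroblast markers, 10 of 11 listed, summed to 273, 280 and 371 CPM in Ch25h KO libraries, against 600, 173 and 402 CPM in WT libraries. Thy1 made up 133 to 194 CPM of that sum in Ch25h KO libraries and 106 to 240 CPM in WT libraries. Col3a1 stood at 7.48, 53.7 and 43.6 CPM in Ch25h KO libraries, against 169, 5.77 and 118 CPM in WT libraries. Their mean of centred log2 values was -0.8, 0.18 and 0.2 in Ch25h KO libraries, against 1.01, -1.11 and 0.51 in WT libraries. The share of Foxc1 or Nr2f2 that came from such cells was not tested.

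**Figure D2:**
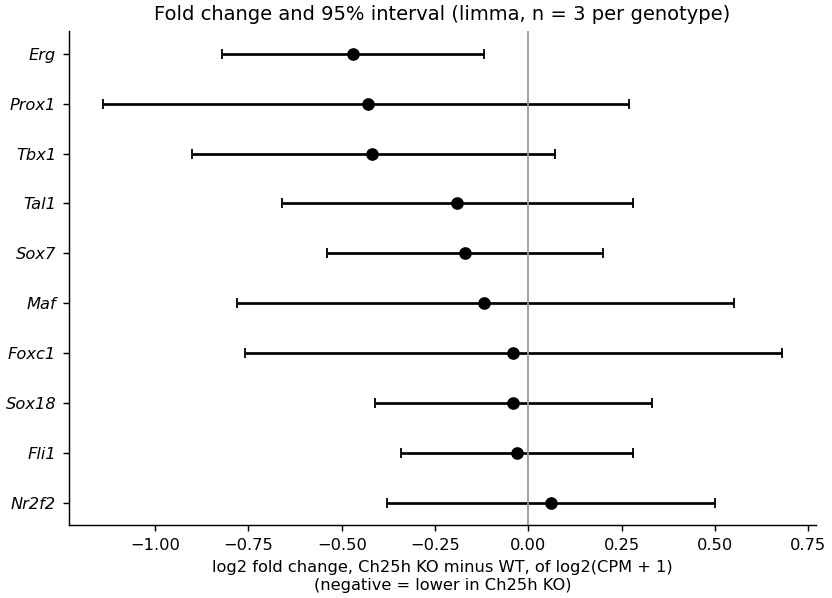
Log2 fold change of each fate factor, Ch25h KO minus WT on the log2(CPM + 1) scale (x axis), with the 95% interval from limma (n = 3 per genotype). The interval of Erg, -0.82 to -0.12, leaves out 0 before adjustment over all genes, and those of the other 9 factors span it.

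The members differed widely in level. Levels were compared between genes as CPM per kb of merged exons, over all 6 libraries. Sox18 was the highest at 323 ± 44 CPM per kb (SD, n = 6), above Tbx1 at 86.3 ± 21.9 CPM per kb without overlap. Prox1 followed at 45.9 ± 17.1 CPM per kb and Fli1 at 44.8 ± 3.72 CPM per kb. These neighbours were not separated, since Prox1 lay above Fli1 in 3 of the 6 libraries. Tbx1 lay above Prox1 in 6 of 6 libraries, although their ranges over libraries overlapped. Sox7, at 37.3 ± 5.62 CPM per kb, overlapped Fli1 and lay above all that followed. Nr2f2 (14.7 ± 2.77 CPM per kb), Maf (14.3 ± 5.01 CPM per kb) and Erg (11 ± 2.11 CPM per kb) formed a middle group whose neighbours overlapped. Tal1 at 5.64 ± 1.13 CPM per kb and Foxc1 at 2.09 ± 0.712 CPM per kb each lay below the gene before it in every library without overlap. Merged exons count every annotated transcript, so a gene read mainly from a short transcript appears too low on this scale.

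**Figure D3:**
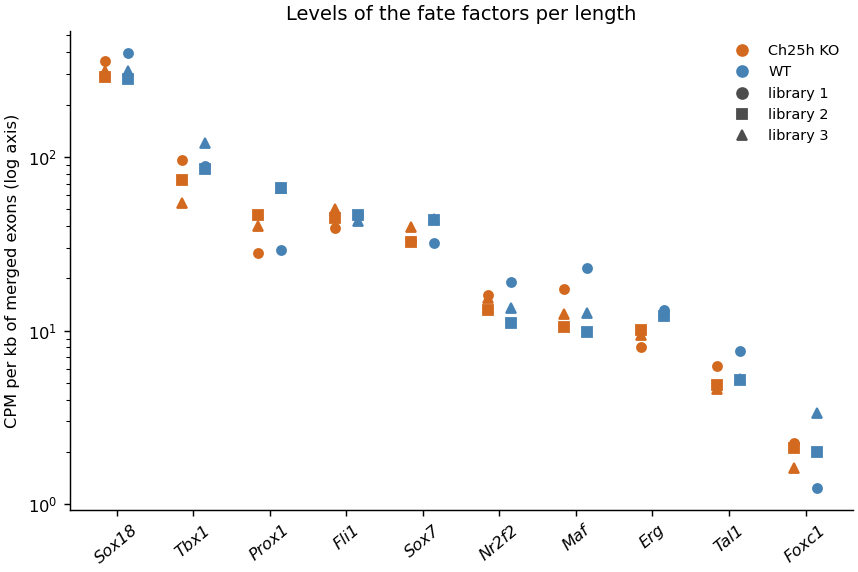
CPM per kb of merged exon length (log axis) of each fate factor in the Ch25h KO (orange) and WT (blue) libraries, with marker shapes for library numbers, genes ordered by their mean. Sox18 lies between 279 and 396 CPM per kb and Foxc1 between 1.24 and 3.34 CPM per kb.

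Several factors stood alike in libraries of the same number, whichever the genotype. In Sox18, Nr2f2, Maf and Tal1 the highest library was WT library 1 and the second highest Ch25h KO library 1. That is 4 of the 10 factors, where 18.2% of all tested genes had library 1 of both genotypes as their highest pair. Sox18, Nr2f2 and Tal1 were also the members whose profiles lay closest together: the centred log2 values of Sox18 and Nr2f2 differed by a mean of 0.079 over the 6 libraries, and those of Sox18 and Tal1 by 0.088. Prox1 went the other way, with library 1 of both genotypes as its lowest pair, as in 15% of all tested genes. Erg and Fli1 did neither. Library 2 of both genotypes was the lowest pair in Sox18, Nr2f2 and Maf, 3 of the 10 factors, against 6.37% of all tested genes. Library 3 of both genotypes was the highest pair in 0 factors (4.72% of all tested genes) and the lowest pair in 0 (5.03%). Nothing in the labels says what libraries with the same number share.

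**Figure D4:**
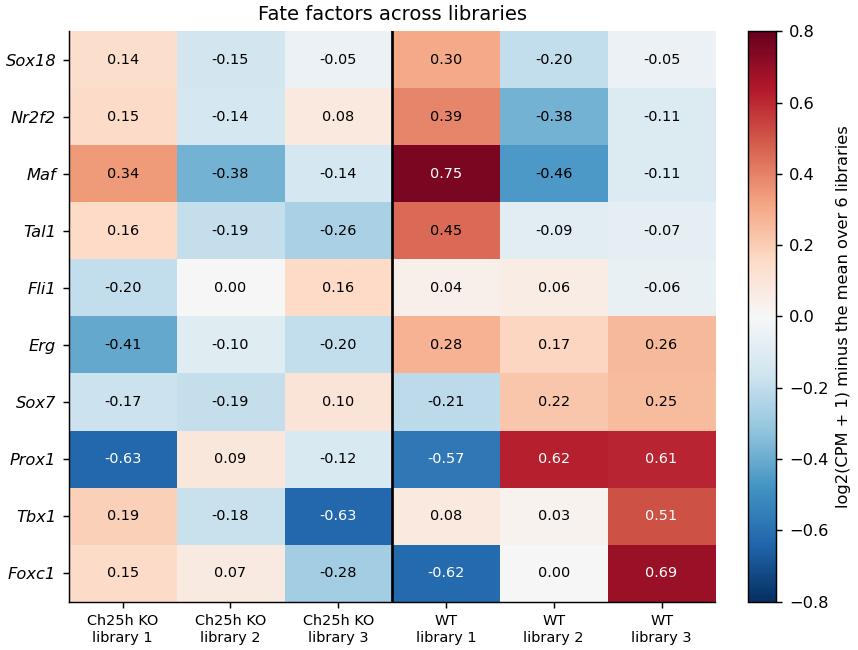
Log2(CPM + 1) of each fate factor minus its mean over the 6 libraries (colour and printed value), with Ch25h KO libraries left of the line and WT libraries right of it. Sox18, Nr2f2, Maf and Tal1 are above their mean in both libraries numbered 1, where Prox1 is at -0.63 (Ch25h KO) and -0.57 (WT), and Erg is below its mean in all Ch25h KO libraries.

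Marker genes were read by the same library order. Of 8 lymphatic markers tested, 4 had library 1 of both genotypes as their lowest pair, Prox1 among them, against 15% of all tested genes. Mmrn1, a secreted multimerin of lymphatic endothelium, stood at 1270, 2140 and 1870 CPM in Ch25h KO libraries 1 to 3 and at 1210, 2560 and 2200 CPM in WT libraries 1, 2 and 3. The guidance receptor gene Nrp2 and the integrin gene Itga9 were the other such markers. Of 14 melanoma and melanocyte markers tested, 6 had library 1 of both genotypes as their highest pair, against 18.2% of all tested genes. Of 10 pan-endothelial markers, 3 had it as their highest and 3 as their lowest pair. Among 16 leukocyte markers 0 did either, and among 8 blood endothelial markers 1 had it as the lowest pair. The 15 measured melanoma markers summed to 394, 326 and 175 CPM in Ch25h KO libraries 1, 2 and 3 and to 328, 214 and 214 CPM in WT libraries 1, 2 and 3. Mural cell markers, 5 of 8 listed, summed to 323, 409 and 291 CPM in Ch25h KO libraries, against 329, 428 and 176 CPM in WT libraries. Kcnj8 made up 236 to 349 CPM of that sum in Ch25h KO libraries and 138 to 335 CPM in WT libraries. Pdgfrb was at 0 to 1.25 CPM in Ch25h KO libraries and 0.0238 to 1.71 CPM in WT libraries. Acta2 was at 7.94 to 9.17 CPM in Ch25h KO libraries and 9.13 to 14.8 CPM in WT libraries. Dissociation stress genes summed to 2730, 3660 and 5020 CPM in Ch25h KO libraries, against 3130, 2460 and 7230 CPM in WT libraries, with no common position of the libraries numbered 1. The part of tumour cells and of these other sources in the fate factor values was not tested.

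Upstream sequences are shown for Nr2f2 and Tal1, of the 4 genes highest in both libraries numbered 1. The RefSeq table of promoter windows matched 6 of the 10 members by symbol, these 2 of the 4 among them. Each line holds the 250 bases before a transcription start, 5′ to 3′ on the gene's strand in GRCm38.p6, the patch release of the mm10 assembly. Capitals mark matches to the motifs searched on both strands: the ETS core CGGAA, the SOX core ACAAT and the general E-box CANNTG. The Nr2f2 window is its only one, chr7:70366747-70366996 (minus strand) and the Tal1 window is its outermost, chr4:115056176-115056425 (plus strand).
Nr2f2: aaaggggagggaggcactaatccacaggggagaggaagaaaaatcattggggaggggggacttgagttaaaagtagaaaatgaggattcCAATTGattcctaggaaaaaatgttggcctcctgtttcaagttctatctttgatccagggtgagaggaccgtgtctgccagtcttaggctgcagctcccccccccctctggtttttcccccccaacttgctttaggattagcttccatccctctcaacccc
Tal1: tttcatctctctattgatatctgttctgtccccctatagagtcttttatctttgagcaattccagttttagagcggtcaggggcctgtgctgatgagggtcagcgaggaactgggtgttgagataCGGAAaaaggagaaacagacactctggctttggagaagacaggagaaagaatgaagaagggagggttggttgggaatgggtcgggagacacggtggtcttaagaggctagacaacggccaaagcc
The Nr2f2 window held an E-box and no match to the other motifs. The Tal1 window held an ETS core and no match to the others. Over all 32851 RefSeq windows of this length, 66.2% held an E-box, 25.2% the ETS core and 27.7% the SOX core. Of the 3 windows listed for Erg, the outermost and the middle one held none of the motifs, and the innermost held 1 SOX core and 2 E-boxes. A match describes letters only and shows no binding.

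The genes most like Erg and Prox1 over the 6 libraries were ranked by the mean absolute difference of centred log2 values, among 9808 candidate genes whose mean reached 5 CPM. For Erg these were Chd1, Sh3rf1, Psg22, Stx17 and Zswim8, with differences of 0.045 to 0.063, where the median tested gene differed by 0.291. Chd1, which encodes a chromatin remodeller, stood at 44.6, 55.8 and 49.9 CPM in Ch25h KO libraries, against 69.0, 63.3 and 64.0 CPM in WT libraries. None of these 5 passed the test (limma, adjusted p from 0.836 to 0.941). For Prox1 they were Slc44a1, Gpt2, Adcy3, Tbc1d24 and Nr1d2, with differences of 0.088 to 0.121, where the median tested gene differed by 0.479. Slc44a1, a choline transporter gene, stood at 31.5, 44.0 and 35.7 CPM in Ch25h KO libraries, against 29.4, 66.8 and 62.3 CPM in WT libraries. With so many genes and 6 libraries, close profiles can arise without a link between the genes. How common such close profiles are was not counted.

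Other factors of endothelial fate likewise held no call. Of 28 tested, 12 had a higher and 16 a lower mean in Ch25h KO, the median log2 fold change was -0.05, and 3 reached an unadjusted p under 0.05, against 5.41% of all tested genes. Genotypes did not overlap for Meox2 and Elk3, higher in Ch25h KO, and Tshz2, lower, against 10.2% of all tested genes. Elk3, an ETS factor named after its values were seen, was set apart by less than the rounding of the values, with Ch25h KO library 2 and WT library 2 both at 861 CPM (log2 fold change 0.14; limma, adjusted p = 0.973). Meox2, a homeobox gene of endothelium, stood at 19, 25.9 and 33 CPM in Ch25h KO libraries, against 15, 14.6 and 9.72 CPM in WT libraries. All Ch25h KO values lay above all WT values (log2 fold change 0.92 ± 0.25, SE; limma, adjusted p = 0.836). Tshz2, which encodes a zinc finger factor, stood at 54.0, 51.9 and 38.0 CPM in Ch25h KO libraries, against 63.4, 64.2 and 68.8 CPM in WT libraries, without overlap (log2 fold change -0.46; limma, adjusted p = 0.836). However, 67.5% of the Tshz2 exon bases overlap genes on the other strand, Gm26883 and A630075F10Rik, from which strand could not separate reads. Gata6, a zinc finger factor of heart and vessel development, was low in both genotypes, at 0.0537, 1.81 and 0.403 CPM in Ch25h KO libraries, against 4.69, 0.977 and 2.94 CPM in WT libraries (limma, adjusted p = 0.913). Ets1, an ETS factor like Erg and Fli1, stood at 242, 331 and 326 CPM in Ch25h KO libraries, against 304, 400 and 353 CPM in WT libraries, with overlap. Ets1 was named after its values were seen.

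Close relatives of the members gave no call. Of 20 listed, 10 were tested, 4 with a higher and 6 with a lower mean in Ch25h KO, with a median of -0.07 and adjusted p-values from 0.973 to 0.999 (limma). The small Maf genes Maff and Mafk had log2 fold changes of -0.27 and -0.22, which ran from -0.43 to -0.11 for Maff and from -0.42 to -0.05 for Mafk when single libraries were left out. Foxc2, the relative of Foxc1 that lymphatic valves need, was chosen after its values were seen and stood at 19.3, 22.1 and 15.9 CPM in Ch25h KO libraries, against 21.0, 15.1 and 26.3 CPM in WT libraries.

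Partners of Tal1 held no call either. Of 11 tested, 4 had a higher and 7 a lower mean in Ch25h KO, and log2 fold changes ran from -0.23 to 0.32 (limma, adjusted p from 0.973 to 0.993). The adaptor gene Lmo2 stood at 571, 458 and 427 CPM in Ch25h KO libraries, against 571, 469 and 548 CPM in WT libraries. The E-protein gene Tcf3 stood at 146, 158 and 156 CPM in Ch25h KO libraries, against 163, 187 and 166 CPM in WT libraries. It was the single partner without overlap, against 10.2% of all tested genes in either direction and 5.78% lower in Ch25h KO. Gata2, a zinc finger factor needed in lymphatic valves, stood at 29.4, 45 and 55.8 CPM in Ch25h KO libraries, against 31.0, 28.6 and 41.9 CPM in WT libraries.

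Lymphatic genes reported to be under the control of Prox1, Nr2f2 or SoxF factors had no member past the threshold. Of 17 tested, 6 had a higher and 11 a lower mean in Ch25h KO, with a median log2 fold change of -0.10. Gja4 and Reln, 2 of the 17, reached an unadjusted p under 0.05 in limma, against 5.41% of all tested genes. Flt4, which encodes the VEGFC receptor VEGFR3, stood at 1160, 1610 and 1330 CPM in Ch25h KO libraries, against 1440, 1990 and 1780 CPM in WT libraries. Library 1 was the lowest of its genotype in both, as in Prox1 (log2 fold change -0.35 ± 0.19, SE; limma, adjusted p = 0.941). Reln, which encodes the secreted glycoprotein reelin, stood at 292, 334 and 313 CPM in Ch25h KO libraries, against 353, 399 and 424 CPM in WT libraries. It was the one gene of this list without overlap (log2 fold change -0.32; limma, adjusted p = 0.905). Over all tested genes 10.2% had no overlap in either direction and 5.78% lower in Ch25h KO. Gja4, a connexin gene of valves, stood at 15.9, 27.3 and 15.4 CPM in Ch25h KO libraries, against 36.7, 21.3 and 73.5 CPM in WT libraries (log2 fold change -1 ± 0.40, SE; limma, adjusted p = 0.874), and leaving out single libraries gave fold changes of -1.42 to -0.54.

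Endothelial genes reported to be under the control of Erg or Fli1 were split in direction. Of 18 tested, 10 had a higher and 8 a lower mean in Ch25h KO, and the median log2 fold change was 0.01. Genotypes did not overlap for 4 of them, Nos3, Dll4 and Flt1 lower in Ch25h KO and Ecscr higher, against 10.2% of all tested genes. Nos3, the endothelial nitric oxide synthase gene, stood at 154, 112 and 143 CPM in Ch25h KO libraries, against 169, 190 and 155 CPM in WT libraries (log2 fold change -0.34; limma, adjusted p = 0.939). However, 32.3% of the Nos3 exon bases overlap genes on the other strand, Gm15587 and Atg9b, from which strand could not separate reads. Dll4, a Notch ligand gene named after its values were seen, stood at 141, 135 and 145 CPM in Ch25h KO libraries, against 152, 156 and 158 CPM in WT libraries (log2 fold change -0.14; limma, adjusted p = 0.973). Ecscr, an endothelial surface protein gene, stood at 881, 831 and 840 CPM in Ch25h KO libraries, against 770, 650 and 708 CPM in WT libraries (log2 fold change 0.26; limma, adjusted p = 0.941). The adhesion molecule gene Esam stood at 43.2, 42.2 and 60.9 CPM in Ch25h KO libraries, against 45.1, 36.9 and 23.3 CPM in WT libraries (log2 fold change 0.49, 0.23 to 0.69 without single libraries; limma, adjusted p = 0.941). The VE-cadherin gene Cdh5, a defining junction gene named after its values were seen, stood at 357, 335 and 322 CPM in Ch25h KO libraries, against 416, 289 and 285 CPM in WT libraries.

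**Figure D5:**
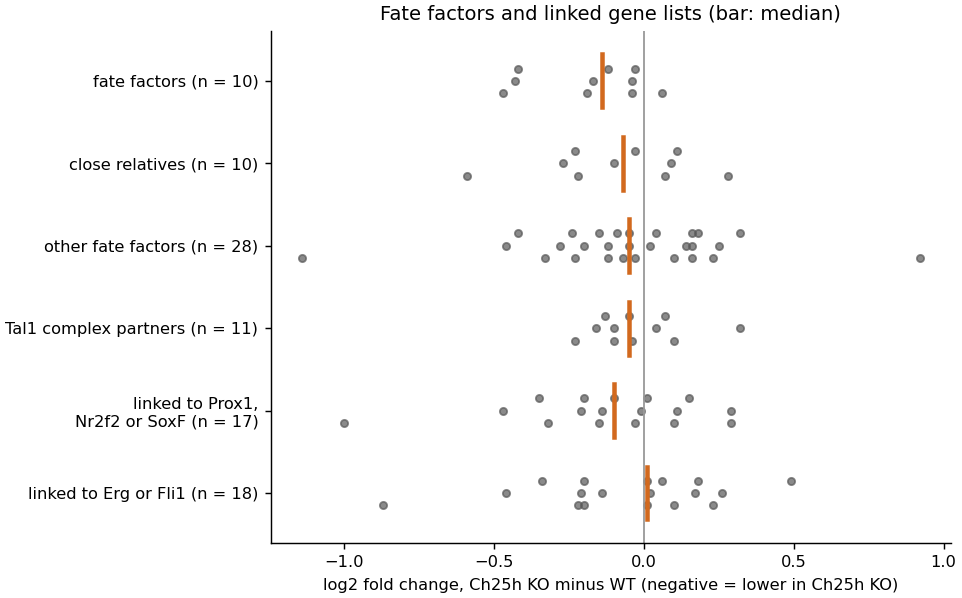
Log2 fold change, Ch25h KO minus WT (x axis), of every tested gene (points) of the fate factors and of 5 linked gene lists (rows, with the number tested), with the median as a bar. Medians lie between -0.14 for the fate factors and 0.01 for genes linked to Erg or Fli1, and points of each list stand on both sides of 0.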

How the data were processed

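The authors deposited a normalized signal per gene and library, on the CPM scale. The submitters' processing notes name the mm10 build and STAR 2.7.0, HTSeq 0.9.1 and edgeR 3.26.8, with no roles. Annotation, strand setting and gene filter are not given in these sources. Per the labels' protocols, cDNA was made with SMART-Seq v4 and libraries with Nextera XT, a route that does not mark strand.

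Every value was a whole multiple of its library's smallest value above 0, so the reads could be recovered: the tolerance was 0.01 of a read, and 100% of values met it. The columns equal CPM scaled by edgeR's TMM factors, 0.967 to 1.02. The recovered reads carry no molecular identifiers.

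Genotypes were compared with limma on log2(CPM + 1), with genotype as the term and a trended variance prior. The 11980 genes whose mean reached 1 CPM were tested, with Benjamini-Hochberg adjustment and a threshold of 0.05. A fold change is Ch25h KO minus WT on this scale and understates the change of low genes. Exact permutation tests are two-sided. Alternatives changed the pseudocount, filter, scaling, variance prior or library weights, added the library number as a block, used edgeR or DESeq2 on recovered reads, or left out libraries.

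The members and all gene lists were chosen with earlier results of these data known, and the lists of controlled genes rest on general knowledge. Named genes were the 10 factors, Ch25h, Pecam1, Pdpn, Ptprc, the 3 genes of smallest p in each list, and the 5 genes most like Prox1 and Erg. Older symbols were resolved through RefSeq synonyms. Positions and exon lengths are from GENCODE M21 (mm10), 1-based. Tools were R 4.3.3, limma 3.58.1, edgeR 4.0.16 and DESeq2 1.42.0.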

Additional observations from a re-analysis of the deposited data

How the results depend on the processing

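Over 17 alternatives, 15 planned and 2 chosen after seeing the data, no fate factor passed the threshold, and Erg, Prox1, Sox7, Tbx1 and Tal1 kept the sign of their fold change in all 17. Leaving out single libraries gave -0.83 to -0.23 for Prox1, -0.32 to -0.09 for Sox7, -0.61 to -0.21 for Tbx1 and -0.32 to -0.01 for Tal1. The count of factors with a lower mean was 9 and ran from 7 to 10 when single libraries were left out. It was 6 without library 1 of both genotypes. Fold changes that turned sign did so as follows, with the range over single libraries left out. Sox18 ran from -0.15 to 0.11 (0.03 without Ch25h KO library 2, 0.02 without library 1 of both), Maf from -0.38 to 0.23 (0.04 and 0.03 in the same settings), Fli1 from -0.11 to 0.07 (0.02 with library weights, 0.08 without library 1 of both), Nr2f2 from -0.11 to 0.27 (-0.00013 without Ch25h KO library 1) and Foxc1 from -0.36 to 0.29. Among genes named beside them, Pecam1 ran from -0.08 to 0.17, Ptprc from -0.30 to 1.89, Adcy3 from -0.67 to 0.01 and Nr1d2 from -0.66 to 0.01. The cause of these turns was not tested.

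The call of Ch25h was lost with a pseudocount of 0.25 CPM (log2 fold change -7.26, limma adjusted p = 0.0779), without WT library 1 (adjusted p = 0.0792) and without library 1 of both (-5.61, adjusted p = 0.632). It was not made by edgeR (-6.55, adjusted p = 0.816), by edgeR with the block (-7.49, adjusted p = 0.72) or by DESeq2 (-6.53, adjusted p = 0.208). Leaving out single libraries gave -6.52 to -5.53. Genes called were 1 in limma, 0 at a pseudocount of 0.25 CPM (650 at an unadjusted p under 0.05), 0 in edgeR (658), 0 in edgeR with the block (756), 0 without library 1 of both (926), 13 in DESeq2, and 0 to 2 without single libraries.

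Same-numbered libraries did not deviate together throughout: the correlation of deviations from the group means over genes was 0.238 for number 1, -0.062 for number 2 and -0.101 for number 3. Across numbers, Ch25h KO library 2 with WT library 3 gave 0.268 and Ch25h KO library 3 with WT library 2 gave 0.168. With the library number as a replicate block limma called 1 gene, Ch25h, and 0 of the 10 factors. The block gave 850 genes at an unadjusted p under 0.05 against 648 without it, and Prox1 joined Erg there (adjusted p = 0.683 for each). It left 9 factors with a lower mean. The members took between 332 and 29282 reads per library, and without molecular identifiers the number of molecules behind them is not known.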
